A study of Mus musculus with 2 samples.

Results

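The genes of sphingolipid synthesis from serine were described in mouse subcutaneous tumours profiled by single-cell RNA sequencing. The 8 genes were Sptlc1, Sptlc2, Sptssa, Kdsr, Cers2, Cers5, Cers6 and Degs1, chosen by symbol, and all 8 were among the 32285 genes of the deposited matrices. One library came from tumours of mice on a diet free of serine and glycine (labelled SG) and 1 library from tumours of mice on a control diet (labelled CT); the diets behind these abbreviations were read from the series' design text. No source used here gives the tumour line, the strain or age of the mice, or how many mice each library holds. With 1 library per diet there was no replicate, so no test was possible, and every difference below is between 2 libraries.

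Sphingolipids are membrane lipids built on a backbone that cells make from serine and palmitoyl-CoA. Serine palmitoyltransferase, whose core is SPTLC1 with SPTLC2 and which is activated by the small subunit SPTSSA, joins the pair; KDSR reduces the product; ceramide synthases add a fatty acid, CERS2 a very long one and CERS5 and CERS6 mainly palmitate; and DEGS1 adds the double bond that turns dihydroceramide into ceramide. Ceramide is then made into sphingomyelin and glycosphingolipids or broken down to sphingosine. When serine is scarce the first enzyme can use alanine or glycine instead, which yields deoxysphingolipids.

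After filtering, 19106 cells of the serine/glycine-free library and 13588 cells of the control library were kept, with medians of 7305 and 11310.5 unique molecular identifiers (UMIs, tags that count captured RNA molecules) per cell. The libraries shared 87 cell barcodes. Cells were put into classes by marker genes. Presumed tumour cells, which carried Hmga2, Rhox5 or Krt20 and passed no leukocyte or stromal gate, numbered 13351 and 10511; their epithelial markers summed to 10.9 and 32.9 CPM (UMIs scaled to a common total, as described next). Monocytes/macrophages numbered 1701 and 1379, T cells 1183 and 424, NK cells 145 and 125, dendritic cells 128 and 106, neutrophils 119 and 108, fibroblasts 90 and 62, and endothelial cells 52 and 35. B and plasma cells numbered 367 and 20, too few in the control library for a diet ratio. In every class the serine/glycine-free cells had the lower median depth, for instance 8982 against 12856 UMIs in presumed tumour cells. No class is named by anything but its markers, and the share of gated cells that also lay in a cluster of the same name was 90.00% or more in every class and library.

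Levels are UMIs summed over the cells of a class and scaled to a common total per library, written CPM. Intervals are 95%, exact Poisson for levels and exact conditional binomial for ratios, and cover counting error only. Since 3' tags were counted, a CPM is compared between classes and diets for 1 gene, not between genes. A ratio is called past the fold at 1.5 times in either direction for genes with at least 100 UMIs over both libraries in the class.

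Promoter sequences are shown for Cers6 and Degs1, the members whose diet ratio passed the fold in a class. Both windows run from 250 bases before to 50 bases after the start site, as given by RefSeq on GRCm38.p6. They are written 5′ to 3′ on the gene's own strand. Cers6 lies at chr2:68861191-68861490 on the plus strand and Degs1 at chr1:182282146-182282445 on the minus strand. The Degs1 window lies inside the gene span given below, whose 5′ end is further upstream. Capitals mark ACGTG, a core of the hypoxia response element, found on either strand. In both genes the 2 matches overlap in the palindrome CACGTG.
Cers6: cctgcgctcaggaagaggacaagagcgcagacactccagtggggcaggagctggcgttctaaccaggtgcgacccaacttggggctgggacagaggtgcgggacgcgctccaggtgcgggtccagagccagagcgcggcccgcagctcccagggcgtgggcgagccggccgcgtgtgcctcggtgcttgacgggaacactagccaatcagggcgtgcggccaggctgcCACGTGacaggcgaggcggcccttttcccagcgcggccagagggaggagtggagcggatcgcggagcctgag
Degs1: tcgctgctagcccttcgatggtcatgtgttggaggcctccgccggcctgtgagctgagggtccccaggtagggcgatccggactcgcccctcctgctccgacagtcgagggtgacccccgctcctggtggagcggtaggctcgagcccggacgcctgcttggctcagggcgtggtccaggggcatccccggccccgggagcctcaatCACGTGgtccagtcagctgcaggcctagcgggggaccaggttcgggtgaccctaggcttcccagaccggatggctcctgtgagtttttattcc
ACGTG was searched because hypoxia markers differed between the libraries, and TGATGNAA, a core of the amino acid response element, because the diet lacked amino acids. In presumed tumour cells hypoxia markers summed to 425 CPM in the serine/glycine-free library and 252 CPM in the control library. In the classes where a member passed the fold they summed to 251 and 192 CPM (NK cells), 484 and 396 CPM (fibroblasts) and 500 and 570 CPM (endothelial cells). Of the 9 member promoters, with 2 for Cers2, ACGTG was also found in 1 of the Cers2 windows and in no window of the other 5 genes, and TGATGNAA was found in none. Of 32851 mouse promoters of that length, 19.6% held ACGTG and 3.97% held TGATGNAA. A match describes the letters only.

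Sptlc2, which encodes the catalytic partner of SPTLC1 in serine palmitoyltransferase, was lowest in presumed tumour cells, at 48.9 CPM in the serine/glycine-free library and 46.5 CPM in the control library. It was 2.55 and 2.95 times as high in monocytes/macrophages, 2.84 and 2.45 times in endothelial cells and 1.82 and 1.68 times in T cells, and the counting interval of each of these ratios lay above 1 in both libraries. In fibroblasts its log2 ratio to presumed tumour cells was 1.13 and 1.68. In B and plasma cells of the serine/glycine-free library it was at 50.9 CPM, within counting error of presumed tumour cells. Sptlc1 was at 26.2 CPM in monocytes/macrophages of the serine/glycine-free library and 33.2 CPM in those of the control library, which is 1.57 and 1.80 times the level of presumed tumour cells. Sptssa was highest in monocytes/macrophages, at 182 CPM (95% interval 171 to 193) and 183 CPM (173 to 193), and lowest among classes with both libraries in neutrophils, where only 2 and 4 UMIs were counted. In the serine/glycine-free library the monocyte/macrophage interval overlapped those of dendritic and NK cells. Within monocytes/macrophages, Sptssa was at 200 and 208 CPM in the cluster led by C1qa, C1qc and C1qb. In the cluster led by F10, Chil3 and Cxcl3 it was at 94.3 and 89.5 CPM. Sptssa in neutrophils was 0.18 times the level of presumed tumour cells in the serine/glycine-free library; the interval of the control ratio, 0.43, reached equality.

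The reductase gene Kdsr and the ceramide synthase genes Cers2 and Cers5 were lower in monocytes/macrophages than in presumed tumour cells. Kdsr was at 17.0 and 15.8 CPM in monocytes/macrophages, against 31.2 and 36.5 CPM in presumed tumour cells, which is 0.55 and 0.43 times as much. In NK cells it was at 34.6 and 31.5 CPM, in endothelial cells at 31.7 and 22.1 CPM and in fibroblasts at 17.6 and 38.2 CPM, each within counting error of presumed tumour cells. Cers2 was highest in presumed tumour cells, at 150 CPM (148 to 152) and 159 CPM (156 to 161); its level there was not separated by counting error from that of endothelial cells or, in the serine/glycine-free library, of neutrophils (12 UMIs). In T cells it was 0.41 and 0.39 times that level, in fibroblasts 0.43 and 0.39 times, in dendritic cells 0.50 and 0.35 times and in NK cells 0.35 and 0.55 times. Cers5 was 0.58 and 0.64 times as high in monocytes/macrophages as in presumed tumour cells.

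**Figure D1:**
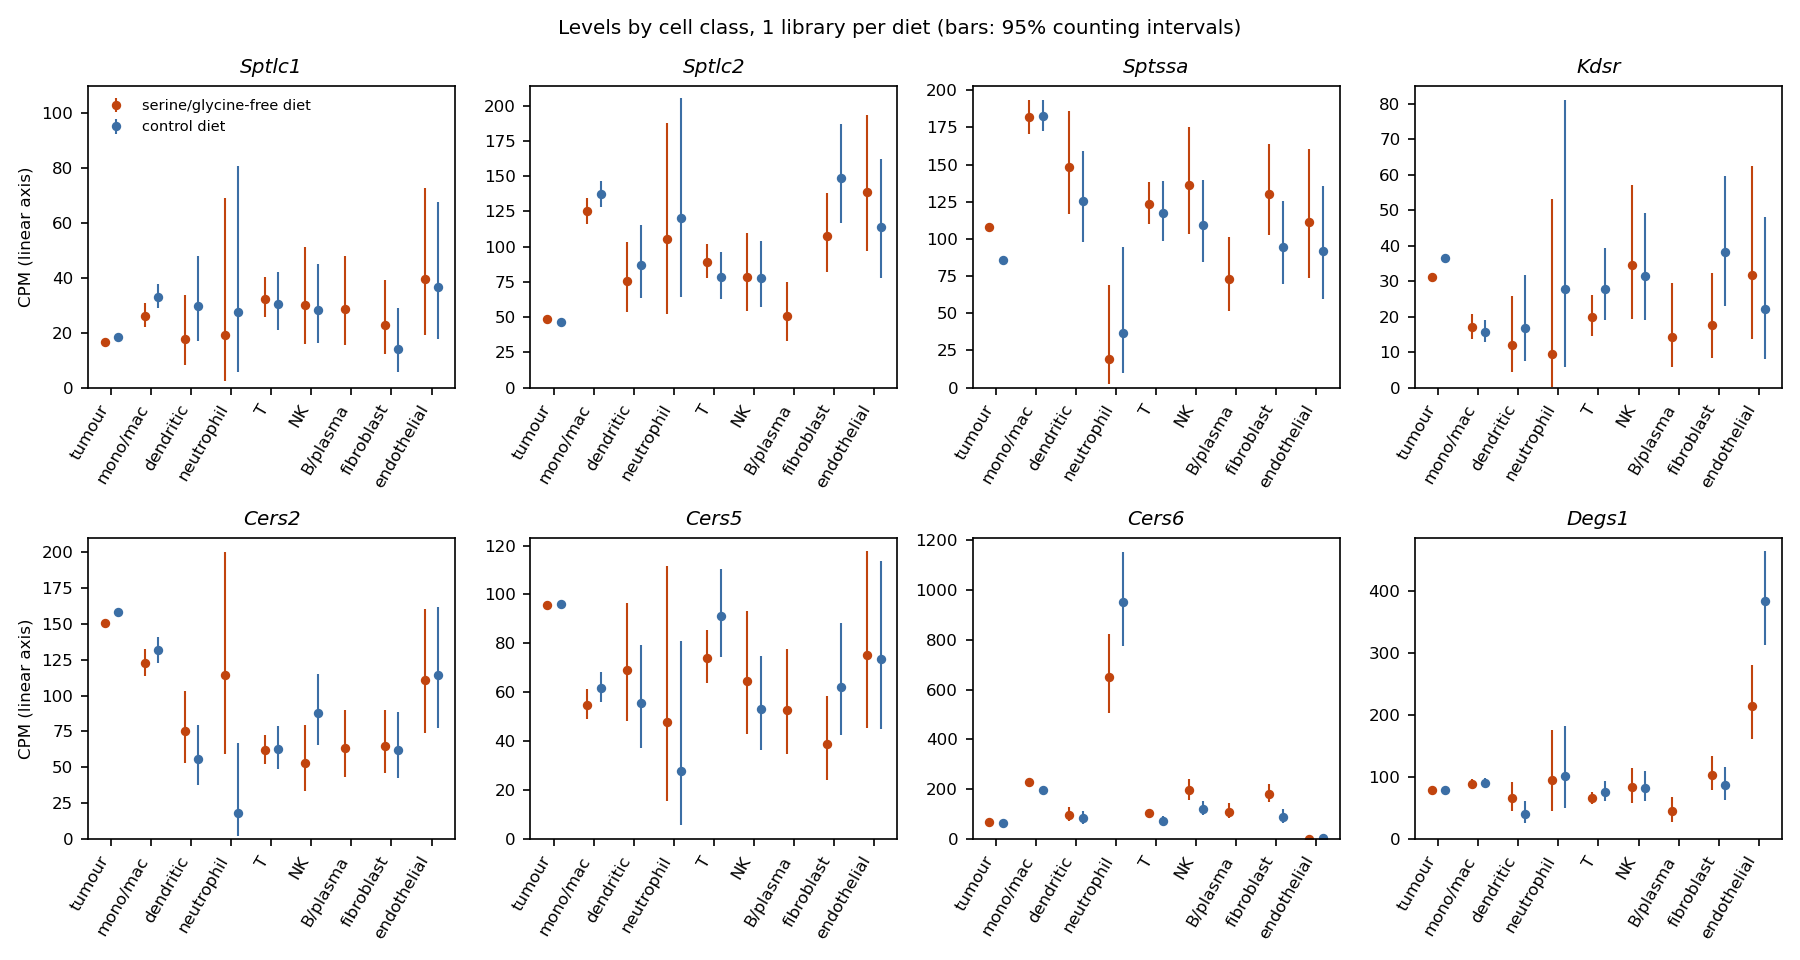
Level of each of the 8 genes by cell class in CPM (linear axes that differ between panels), with the serine/glycine-free library left of the control library and bars for 95% counting intervals; B/plasma is shown for the serine/glycine-free library only. Cers6 is highest in gated neutrophils, at 650 and 951 CPM, a level that in the serine/glycine-free library was 209 CPM with the class from clusters and 133 CPM with at least 1000 UMIs per cell; Degs1 is highest in endothelial cells, at 214 and 383 CPM, while Cers2 is highest in presumed tumour cells.

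The level of Cers6 in neutrophils depended on how the class was drawn. In gated neutrophils it was at 650 CPM (504 to 823, 68 UMIs) in the serine/glycine-free library and 951 CPM (776 to 1154, 103 UMIs) in the control library, which is 9.31 and 14.6 times the level of presumed tumour cells, at 69.8 and 65.3 CPM. With the class taken from clusters, Cers6 in neutrophils was at 209 and 479 CPM, against 223 and 197 CPM in monocytes/macrophages. With at least 1000 UMIs per cell it was at 133 and 795 CPM (5 and 38 UMIs), against 229 and 198 CPM. Under both, the neutrophil value was below that of monocytes/macrophages in the serine/glycine-free library and above it in the control library. No counting interval is given for these settings, so the levels in the serine/glycine-free library are not called different. The neutrophil class from clusters held 831572 and 240228 UMIs of all genes, against 104686 and 108289 in the gated class. Among gated cells monocytes/macrophages came next, at 229 and 198 CPM; in the serine/glycine-free library their interval overlapped those of NK cells and fibroblasts. In endothelial cells it was counted 0 and 1 times, where 3 UMIs would be 11.9 and 11.0 CPM. After each cell was thinned to 1500 UMIs, Cers6 was seen in 0 of 41 and 0 of 33 endothelial cells, against 25.94% and 23.82% of monocytes/macrophages.

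Within the myeloid classes, Cers6 differed between clusters. In the monocyte/macrophage cluster led by F10, Chil3 and Cxcl3 it was at 511 and 349 CPM, and in the cluster led by the complement genes C1qa, C1qc and C1qb at 174 and 157 CPM. In the dendritic cluster led by Klk1, Siglech and Ccr9, the last 2 of which mark plasmacytoid dendritic cells, it was at 370 and 302 CPM (23 and 14 UMIs). In the dendritic cluster led by Xcr1 it was at 46.9 and 49.4 CPM (20 and 23 UMIs). The higher cluster lay above the lower one in both libraries, with intervals that did not overlap. The split by cluster was chosen after the data were seen.

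**Figure D2:**
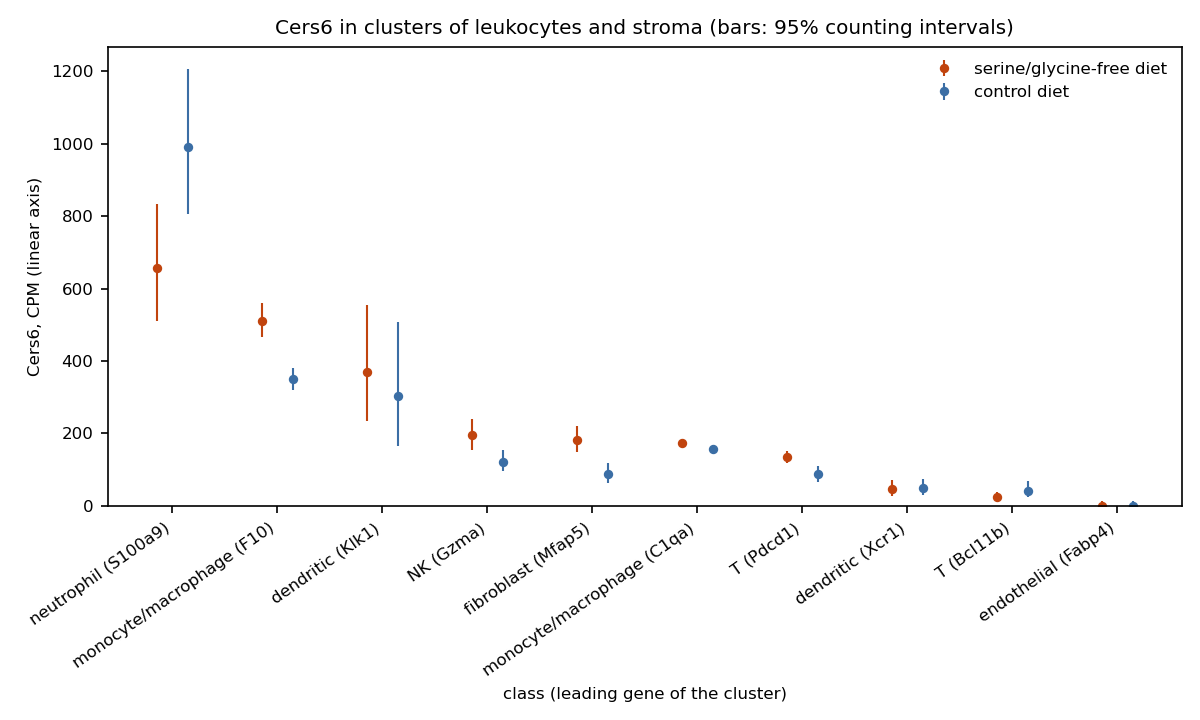
Cers6 in CPM (linear axis) in gated cells of the leukocyte and stromal clusters, without the B/plasma cluster. Clusters are ordered by the Cers6 level in the serine/glycine-free library, with that library left of the control library and bars for 95% counting intervals. Gated cells of the neutrophil cluster and of the F10-led monocyte cluster are highest, and no Cers6 UMI was counted in the endothelial cluster.

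Degs1, the desaturase gene, was highest in endothelial cells, at 214 CPM (54 UMIs) and 383 CPM (104 UMIs), which is 2.69 and 4.85 times the level of presumed tumour cells. In the control library 1 endothelial cell held 16 of the 104 UMIs. In the other classes with both libraries it lay between 40.7 and 104 CPM. It was at 79.7 and 78.8 CPM in presumed tumour cells, 88.5 and 90.6 CPM in monocytes/macrophages and 65.5 and 75.5 CPM in T cells.

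Between the diets, none of the 8 genes passed 1.5-fold in presumed tumour cells, where 7.86% of all genes tested did, and none did in monocytes/macrophages, where the share was 4.84%. At the smaller fold of 0.32 on the log2 scale, 1 of 8 passed in each, Sptssa in presumed tumour cells and Sptlc1 in monocytes/macrophages, against 20.6% and 19.8% of all genes tested. In presumed tumour cells 4 genes were higher and 4 lower in the serine/glycine-free library. Sptssa was at 108 CPM (14454 UMIs) in the serine/glycine-free library and 85.6 CPM (12499 UMIs) in the control library, 1.26 times as high (1.23 to 1.29), and 19.5% of all genes tested lay at least as far from equality. Thinned to 1500 UMIs per cell, it was seen in 14.25% of presumed tumour cells of the serine/glycine-free library and 11.73% of those of the control library (58.65% and 63.64% before thinning). Kdsr was at 31.2 CPM and 36.5 CPM, 0.85 times as high (0.82 to 0.89). The core genes of serine palmitoyltransferase, Sptlc1 and Sptlc2, had log2 ratios of -0.14 and 0.07. Cers2, Cers5, Cers6 and Degs1 lay between -0.08 and 0.10.

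Presumed tumour cells formed 10 clusters, and their shares differed between libraries: the cluster led by Cdsn, Tenm4 and D5Ertd615e held 4.79% and 14.1% of the class. Sptssa was higher in the serine/glycine-free library in 10 of 10 clusters, with log2 ratios between 0.16 and 0.37 and every interval above 0. Kdsr was lower in 10 of 10 clusters, between -0.37 and -0.06, and the interval lay below 0 in 3 of them. Cers6 was higher in 7 clusters, each with its interval above 0, and log2 ratios ran from -0.08 to 0.31 over the 10. These clusters come from the same 2 libraries and are not replicates. Summed hypoxia markers were at 425 CPM in the serine/glycine-free library and 252 CPM in the control library and were higher in each of the 10 clusters, and mitotic markers at 1649 and 1219 CPM; their part in the ratios was not tested.

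Over the 10 clusters, the highest level of a gene was between 1.41 and 3.07 times its lowest level in the same library. The cluster led by Cxcl1, Gadd45b and Dnajb1 had the lowest Sptlc1, Sptssa, Kdsr and Cers5 of the 10 in both libraries. Except for Cers5 in the serine/glycine-free library, each of these intervals overlapped that of another cluster. Cers6 was highest in the cluster led by Cenpf, Aspm and Ccnf, at 89.6 and 83.6 CPM. That interval overlapped those of the cluster led by Lama2 (88.4 CPM, serine/glycine-free library) and the cluster led by Cxcl1 (76.5 CPM, control library). The lowest Cers6 was in the cluster led by Cdsn, Ung and Fkbp11, at 33.0 and 27.2 CPM. In that last cluster Cers2 was highest, at 193 and 206 CPM, as was Degs1, at 99.1 and 98.3 CPM. The Degs1 interval overlapped that of another cluster in both libraries, and the Cers2 interval in the serine/glycine-free library.

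**Figure D3:**
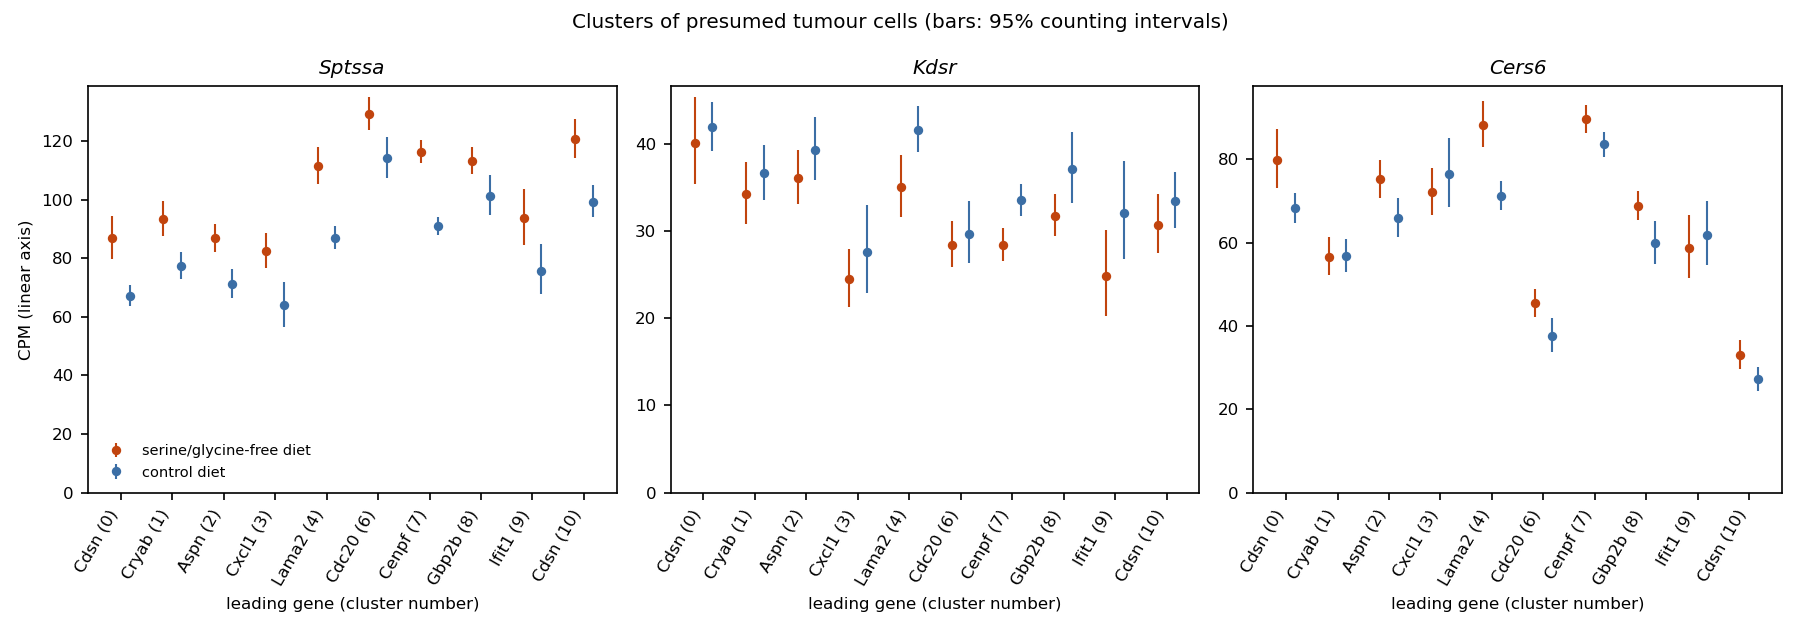
Sptssa, Kdsr and Cers6 in CPM (linear axes) in the 10 clusters of presumed tumour cells, named by a leading gene, with the serine/glycine-free library left of the control library and bars for 95% counting intervals. Sptssa is higher in the serine/glycine-free library in 10 of 10 clusters and Kdsr lower in 10 of 10, while Cers6 is 2.72 and 3.07 times as high in its highest as in its lowest cluster.

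In monocytes/macrophages 2 of 8 genes were higher and 6 lower in the serine/glycine-free library. Cers6 was at 229 and 198 CPM, a log2 ratio of 0.21 (0.10 to 0.33); it was 0.55 in the F10-led cluster and 0.15 in the C1q-led cluster. Sptlc1 was at 26.2 and 33.2 CPM, 0.79 times as high (0.64 to 0.98).

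In T cells 7 genes could be compared and none passed 1.5-fold, against 5.56% of all genes tested. Cers6 was at 105 CPM (261 UMIs) in the serine/glycine-free library and 73.8 CPM (85 UMIs) in the control library, a log2 ratio of 0.52 (0.16 to 0.89). In the T cluster led by Pdcd1, the gene of an inhibitory receptor, the ratio was 0.63 (0.22 to 1.05). In the T cluster led by Bcl11b it was -0.84 (-1.97 to 0.27), from 14 and 17 UMIs. T cells with UMIs of Cd8a or Cd8b1, the genes of the CD8 co-receptor, and no UMI of Cd4 were taken as a group. In this group Cers6 was at 120 CPM in 779 cells and 76.9 CPM in 273 cells, a log2 ratio of 0.64 (0.23 to 1.06). In the other T cells it was at 64.7 and 65.3 CPM, from 41 and 20 UMIs, a ratio of -0.01 (-0.82 to 0.83), and the intervals of the 2 T-cell groups overlap. The CD8 split was chosen after the data were seen.

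In NK cells Cers6 passed the fold, 1 of 2 genes compared, against 10.5% of all genes tested. It was at 196 CPM (85 UMIs) and 121 CPM (73 UMIs), 1.62 times as high (1.17 to 2.24), and after thinning was seen in 30.36% (22.02 to 39.76) and 17.24% (10.86 to 25.36) of cells. The NK marker genes summed to 14663 and 9417 CPM, and 7 of 7 were higher in the serine/glycine-free library; their part was not tested.

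In fibroblasts Cers6 also passed it, 1 of 4 genes compared, against 12% of all genes tested. Cers6 was at 181 CPM (103 UMIs) in 90 cells and 88.5 CPM (44 UMIs) in 62 cells, 2.05 times as high (1.43 to 2.99). Mitotic markers in these fibroblasts summed to 483 and 205 CPM and endothelial markers to 400 and 137 CPM, and their part was not tested.

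In endothelial cells Degs1 was the only gene that could be compared and lay past the fold, at 0.56 times (0.40 to 0.78), where 14.2% of all genes tested did. After thinning, Degs1 was seen in 21.95% (10.56 to 37.61) and 27.27% (13.30 to 45.52) of endothelial cells, and these intervals overlap. Without the cell that held most Degs1 UMIs in each library the log2 ratio was -0.77, against -0.84 with it. In the class mitotic markers summed to 900.5 and 339 CPM, fibroblast markers to 99.2 and 11.0 CPM and the endothelial markers themselves to 18982 and 13613 CPM, with 5 of 7 higher in the serine/glycine-free library; their part was not tested.

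In neutrophils Cers6 was the only gene compared, at 0.68 times (0.50 to 0.94), short of the fold, where 23.9% of all genes tested passed. Neutrophils had median depths of only 625 and 828.5 UMIs, and their own markers summed to 48230 and 88818 CPM, with 0 of 7 higher in the serine/glycine-free library. Monocyte/macrophage markers in them summed to 1739 and 4349 CPM, T markers to 28.7 and 166 CPM, NK markers to 28.7 and 129 CPM, presumed tumour markers to 220 and 129 CPM and fibroblast markers to 220 and 0 CPM; their part was not tested. The log2 ratio, -0.55, became -1.19 with the class taken from clusters (209 and 479 CPM) and -2.58 with at least 1000 UMIs per cell, from 5 and 38 UMIs. In dendritic cells Sptssa was compared, at 149 and 126 CPM, a log2 ratio of 0.24 (-0.25 to 0.74), and 7.14% of all genes tested passed the fold.

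**Figure D4:**
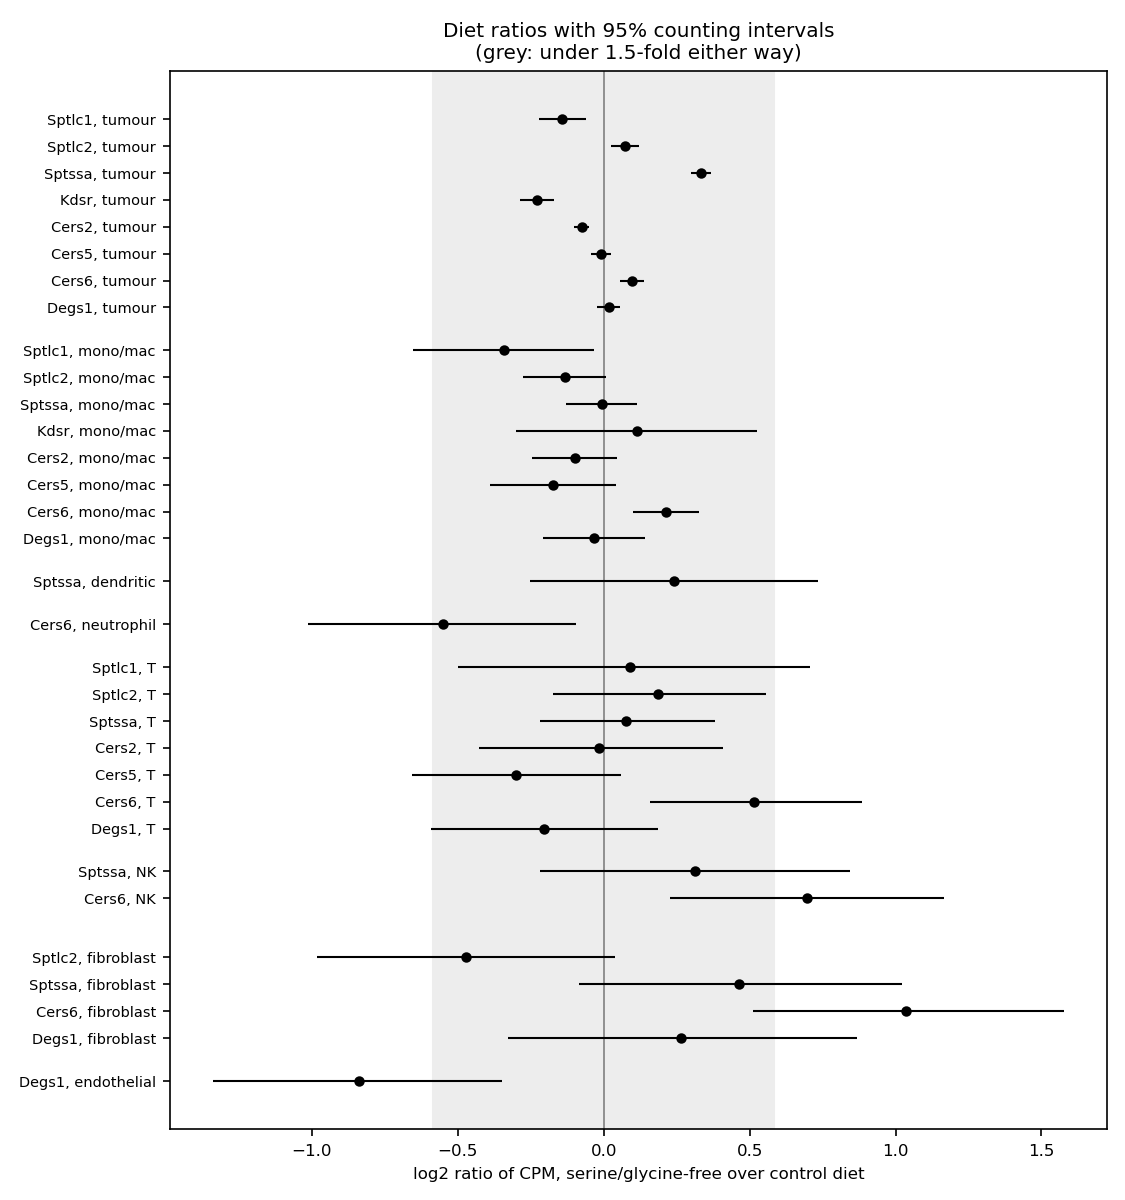
Log2 ratio of CPM, serine/glycine-free over control diet, for each gene and class with at least 100 UMIs over both libraries; points are ratios, bars 95% counting intervals and the grey band marks less than 1.5-fold either way. Points outside the band are Cers6 in NK cells (0.69) and fibroblasts (1.03) and Degs1 in endothelial cells (-0.84).

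The wider pathway was read from a list of 64 genes that act around these 8. In presumed tumour cells 43 could be compared, of which 26 were higher and 17 lower in the serine/glycine-free library, with a median log2 ratio of 0.02 against 0.03 over all genes tested. Past the fold were 2 of 43, both lower, against 7.86% of all genes tested. St3gal5, which encodes the sialyltransferase that makes the ganglioside GM3, was at 8.33 CPM (1116 UMIs) in the serine/glycine-free library and 17.0 CPM (2487 UMIs) in the control library, a log2 ratio of -1.03 (-1.14 to -0.93). In 10 of 10 clusters it lay below the control library, between -1.28 and -0.66. Sgpp2, a sphingosine phosphate phosphatase gene, was at 1.14 and 1.74 CPM (-0.61); it was higher in 3 of 10 clusters, with ratios between -1.06 and 0.38. The other lowest ratios were those of the sphingosine phosphate exporter gene Spns2 (-0.22) and the ceramide phosphate transfer gene Cptp (-0.20).

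The highest ratios belonged to Gm2a, a lysosomal activator of ganglioside breakdown, at 0.92 and 0.69 CPM (0.41); Hacd2, a dehydratase of fatty acid elongation, at 62.3 and 47.9 CPM (0.38); Ormdl2, a regulator of serine palmitoyltransferase, at 61.4 and 49.3 CPM (0.32); and Sgpp1, at 23.8 and 19.3 CPM (0.30). Ormdl2 was higher in 10 of 10 tumour clusters. The Gm2a ratio came from 123 and 101 UMIs, with an interval of 0.02 to 0.80. Gm2a was higher in 8 of 10 clusters, with ratios between -1.53 and 1.27. Monocyte/macrophage markers in presumed tumour cells summed to 76.5 and 45.4 CPM, with 12 of 12 higher in the serine/glycine-free library, and their part was not tested. In NK cells 1 of 5 genes compared passed the fold, against 10.5% of all genes tested: Col4a3bp, which encodes the ceramide transfer protein, at 194 and 116 CPM (0.74); with classes from clusters its ratio was 0.35, short of the fold. No gene of the list passed it in monocytes/macrophages (37 compared, 24 higher and 13 lower), T cells (23, 12 and 11), dendritic cells (11, 6 and 5), fibroblasts (7, 2 and 5), endothelial cells (4, 3 and 1) or neutrophils (1, higher). The 1 lower gene in endothelial cells had a log2 ratio of -0.5835, just short of the fold, which is 0.5850 on the log2 scale.

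Profiles over 17 class and library combinations were compared with those of 10625 genes by Pearson's r on log2(CPM + 1), as a description; the combinations share libraries and depth. Cers6 was most like Zc3h12a (0.96) and Ptprj (0.92), Sptlc2 most like Tcn2 (0.96) and Plau (0.89), Sptssa most like Pepd (0.95) and Atp5k (0.93), and Degs1 most like Aplp2 (0.92) and Vamp5 (0.92). Cers5 was most like Park7 (0.91) and Trub1 (0.91), Cers2 most like Ctbs (0.90) and Vezt (0.90), Sptlc1 most like Nop9 (0.88) and Mef2d (0.84), and Kdsr most like Exosc4 (0.82) and Trib3 (0.80).

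On GRCm38 the gene of Cers6 spans chr2:68861441-69114282, Degs1 chr1:182275772-182282804, Sptssa chr12:54645392-54656573 and Kdsr chr1:106720459-106759727. Cers6 overlaps 6 other annotated genes, Sptlc2 overlaps 2 and Sptssa 1, none of which is among the genes of the matrices. Cers2 overlaps 6330562C20Rik and Setdb1 on the opposite strand and Cers5 overlaps Gm17058 on the opposite strand. No source used here says whether counting used strand, so reads of these overlaps may not be told apart.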

How the data were processed

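Deposited values were raw UMI counts of each gene in each barcode. The authors made them with Cell Ranger, version 7.0.1 per the file headers, whereas the submitters' processing notes name version 2.2.2 and mm10. The protocol text in the labels speaks of human cardiac tissue, which disagrees with the mouse tumour labels. No source used here says how intronic reads were handled. The libraries held 20662 and 14774 barcodes and 173592046 and 173785388 UMIs (serine/glycine-free and control).

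Cells with at least 500 UMIs, 300 genes and at most 20% mitochondrial UMIs were kept (20312 and 14159). Scrublet in scanpy 1.11.5 removed 1206 (5.94%) and 571 (4.03%) as doublets. Cells were gated one by one with marker panels; gate thresholds were set after marker values, but not those of the 8 genes, were seen. Ungated cells made up 10.2% and 5.89% and were not analysed, nor were 5 and 10 mast cells and 7 and 7 pericytes. Ungated cells passed no gate or several, or passed 1 gate but held more than 2 UMIs of Hmga2, Rhox5 and Krt20 at 500 CPM or more. Also ungated were cells with these tumour markers and more than 1 pan-leukocyte gene, and cells with haemoglobin genes at 10000 CPM or more. Clusters came from 2000 variable genes, 30 components, 15 neighbours and Leiden resolution 1, which gave 22. The genes and lists were chosen with earlier results of these data known. Named were all 8 genes; the 4 highest and 4 lowest ratios of the wider list in presumed tumour cells; in other classes its genes past the fold whose interval excluded equality; and the 2 genes most like each member. Counting ratios were tested on simulated data, where 2-fold changes were recovered in 100% (presumed tumour cells, 13331 genes), 99.5% (monocytes/macrophages, 8669 genes) and 99.4% (NK cells, 1810 genes). The simulated counts held counting error only, with no variation between mice, libraries or cells. Planted changes of 2-fold lie beyond the 1.5-fold call, so high recovery was built in. It checks the calculation and does not show how reliable ratios nearer the fold are. Alternatives changed the classes, doublets, depth, mitochondrial limit, scaling, weighting of cells, fold and UMI minimum. Python 3.11.15, numpy 2.4.6, scipy 1.17.1 and pandas 2.3.3 were used.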

Additional observations from a re-analysis of the deposited data

Results flagged for a closer look

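Cers6 moved in opposite directions in different classes between the same 2 libraries. Its log2 ratio of the serine/glycine-free over the control library was 0.10 in presumed tumour cells, 0.21 in monocytes/macrophages, 0.52 in T cells, 0.69 in NK cells and 1.03 in fibroblasts, and -0.55 in neutrophils. The neutrophil ratio rests on 68 and 103 UMIs and ran from -2.58 to -0.31 over the settings tried. In that class 23.9% of all genes tested passed the fold. The difference between classes was not tested, since each diet had 1 library.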

How the results depend on the processing

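No ratio past the fold changed sign under any alternative run. Cers6 stayed between 0.62 and 0.75 (log2) in NK cells and between 0.78 and 1.15 in fibroblasts, Degs1 in endothelial cells between -0.90 and -0.74, Sptssa in presumed tumour cells between 0.29 and 0.34 and Kdsr there between -0.27 and -0.17, while Col4a3bp in NK cells lay between 0.35 and 0.77. Cers6 in neutrophils ranged between -2.58 and -0.31. Sign changes were limited to ratios near 0 and to Degs1, which was 0.01 in T cells with every cell weighed the same and -0.08 in fibroblasts taken from clusters. Counts past the fold depended on the threshold; each is given with the number compared and, in percent, the share of all genes tested at the same setting. Of the 8 genes, at the smaller fold of 0.32 (log2) 1 of 8 passed in presumed tumour cells (20.6%), 1 of 8 in monocytes/macrophages (19.8%), 1 of 1 in neutrophils (53%), 1 of 7 in T cells (24.4%) and 3 of 4 in fibroblasts (36%). With at least 20 UMIs per gene 2 of 7 passed in dendritic cells (21.3%), 2 of 8 in NK cells (23.2%) and 4 of 8 in fibroblasts (23.9%). With classes from clusters 1 of 2 passed in neutrophils (49.7%) and 2 of 6 in NK cells (7.48%), and with at most 10% mitochondrial UMIs 1 of 7 in T cells (5.47%). Of the wider list, with at least 20 UMIs 4 of 48 passed in presumed tumour cells (14.1%), 2 of 44 in monocytes/macrophages (11.4%), 6 of 23 in dendritic cells (21.3%), 4 of 37 in T cells (14.9%), 6 of 24 in NK cells (23.2%), 9 of 26 in fibroblasts (23.9%) and 6 of 20 in endothelial cells (28.4%). With classes from clusters 4 of 7 passed in neutrophils (49.7%), 1 of 26 in T cells (5.08%), 0 of 8 in NK cells (7.48%), 4 of 16 in fibroblasts (10.5%) and 2 of 5 in endothelial cells (21.3%). In endothelial cells 1 of 4 passed with doublets kept (14.4%), with at least 1000 UMIs per cell (14.2%), with at most 10% mitochondrial UMIs (14.8%) and with CPM without mitochondrial and ribosomal-protein genes (14.2%). The cause was not tested. Counts in small classes rest on few UMIs per gene, so ratios there were detectable only for the most counted genes. No paired analysis was possible because each diet had 1 library.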
